A study of Mus musculus with 4 samples.

Results

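The 52 genes described here act in cell cycle progression and mitosis, and were followed in ID8G and GO2 mouse ovarian cancer cells. They were chosen by function, as cyclins, cyclin-dependent kinases (CDKs), E2F and RB factors, mitotic kinases, checkpoint, kinetochore, spindle, anaphase and cytokinesis genes, by a rule that uses no measured value. The choice was still made with earlier results of these data known. All 52 were found on the array through the RefSeq accession of their probes, and all 52 are among the 13215 genes with a symbol that were tested. ID8G cells are ID8 cells, a line of spontaneously transformed mouse ovarian surface epithelial cells, that express GFP after retroviral transduction. GO2 cells were derived from them by 2 rounds of intraperitoneal injection into syngeneic female C57BL/6 J mice, and were each time sorted as CD45-/GFP+ cells from the collagenase-digested omentum and cultured. Both lines carry GFP and were grown in DMEM with 4% fetal bovine serum, insulin, transferrin and sodium selenite. GO2 is 1 selected line, and no line passed through mice without selection for the omentum was on these arrays. Cy3-labeled cRNA of each line was hybridized to 2 Agilent one-color arrays, and the comparison asks which transcripts differ between the parental cells and the cells that had grown in the omentum. No source says whether the arrays of a line came from separate cultures, so the p values measure only the spread between these arrays, which may be technical.

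The cell cycle is driven by CDKs bound to cyclins that are made and destroyed in turn. D-type cyclins with CDK4 and CDK6, and then cyclin E with CDK2, phosphorylate RB and free E2F factors, which switch on the genes for DNA replication. Later, FOXM1 and MYBL2 switch on the genes of G2 and mitosis, CDK1 with cyclin B starts mitosis, and the anaphase-promoting complex (APC/C) with CDC20 ends it by marking cyclin B and securin for destruction once the spindle checkpoint is satisfied. Transcripts of many of these genes rise and fall together in dividing cells, and their levels in a culture are known to follow the share of cells that divide. In RNA from whole cultures, fewer cycling cells and less RNA per cycling cell cannot be told apart.

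Promoters of genes of the late cell cycle are known for a short element, the cell cycle genes homology region, whose core is read here as TTTGAA, and for the CCAAT box. Both strands were searched, so that the opposite strand reads TTCAAA for the core and ATTGG for the box. Of the 52 genes, 42 have an entry in the RefSeq promoter table of GRCm38.p6, which holds 250 bases before and 50 after a transcript's start. No promoter was looked up for Aurkb, Ccna2, Ccnd1, Ccnd2, Ccne2, Cdc25c, Foxm1, Kif20a, Rb1 and Tpx2, which have no entry there. On either strand, TTTGAA stood in 24 of the 42 genes (57.1%), against 20.2% of 27025 mouse genes with an entry. CCAAT stood in 31 (73.8%), against 41.1%, and GGCGGGAA, 1 form of the E2F site that was also searched on both strands, in 1 (2.38%), against 2.52%. The letters of TTTGAA can share 1 base with those of CCAAT and the letters of GGCGGGAA can share 2, and a match is a description of the letters, not a binding site. The 250 bases before the start are shown for the gene with the largest increase in GO2 cells and for the 3 with the largest decreases that have an entry, with both motifs in capitals.
Cdc20 (chr4:118437344-118437593, minus strand): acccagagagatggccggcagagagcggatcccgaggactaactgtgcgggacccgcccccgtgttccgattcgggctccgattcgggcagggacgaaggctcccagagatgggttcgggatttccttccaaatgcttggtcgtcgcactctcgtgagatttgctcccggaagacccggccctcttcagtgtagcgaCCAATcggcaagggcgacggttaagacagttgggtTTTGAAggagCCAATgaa
Cdk1 (chr10:69352913-69353162, minus strand): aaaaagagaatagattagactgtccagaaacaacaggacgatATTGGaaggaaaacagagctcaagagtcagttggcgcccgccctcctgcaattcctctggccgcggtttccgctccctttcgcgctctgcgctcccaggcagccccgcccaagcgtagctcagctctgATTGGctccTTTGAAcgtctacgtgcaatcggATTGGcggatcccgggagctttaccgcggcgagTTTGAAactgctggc
Mad2l1 (chr6:66534971-66535220, plus strand): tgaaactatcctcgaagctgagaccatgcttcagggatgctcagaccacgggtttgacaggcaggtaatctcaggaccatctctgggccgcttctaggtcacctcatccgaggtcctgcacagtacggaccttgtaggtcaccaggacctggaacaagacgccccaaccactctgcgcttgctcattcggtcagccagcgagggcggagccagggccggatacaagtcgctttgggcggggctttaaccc
Pttg1 (chr11:43425982-43426231, minus strand): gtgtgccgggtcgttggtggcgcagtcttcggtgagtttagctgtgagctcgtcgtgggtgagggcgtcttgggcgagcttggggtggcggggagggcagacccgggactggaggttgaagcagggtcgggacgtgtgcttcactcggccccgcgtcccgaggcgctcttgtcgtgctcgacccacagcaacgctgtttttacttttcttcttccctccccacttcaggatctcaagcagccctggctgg

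Cdc20, which was higher in GO2 cells, and Cdk1, which was lower, both hold TTTGAA and CCAAT. In Cdc20 the TTTGAA begins 18 bases before the start, between CCAAT boxes that begin 53 and 8 bases before it. Cdk1 holds TTTGAA 71 and 15 bases before the start and ATTGG 208, 80 and 48 bases before it. Mad2l1 and Pttg1, both lower in GO2 cells, hold neither of them in the bases shown. By direction of the difference and among genes with an entry, TTTGAA was found in 1 of 2 genes called higher, 2 of 6 called lower and 21 of 34 that were not called (61.8%).

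Levels are given on the log2 scale relative to the 75th percentile of each array, an intensity of 675 and 668 for ID8G and 635 and 627 for GO2. No spot was saturated. Each gene is described by its brightest probe, and every one of the 52 was well above background on all 4 arrays. Precision is limited by the 4 arrays: an exact two-sided permutation test for 1 gene can reach no p below 0.33, and the limma adjusted p values draw on a variance estimated over 28368 probes. The arrays lay on 1 slide. The 7 spike-in transcripts above background were 0.15 to 0.28 higher on the GO2 arrays after this scaling, on the log2 scale, and their part in the results was not tested beyond scaling to them. Ptprc (CD45), the macrophage marker Adgre1, the lymphocyte marker Cd3d and the endothelial markers Cdh5 and Vwf were not well above background in either line. Other markers of these lists were: 4 of 10 macrophage, 2 of 8 lymphocyte and 2 of 8 endothelial markers, on both arrays of each line. Among them 0 were called higher, and the macrophage marker Cd14 (-0.69) and the endothelial marker Esam (-0.68) were called lower. Of 10 fibroblast markers, 6 were tested, 5 rose and 1 fell, and their summed level relative to the 75th percentile on a linear scale was 68.6 to 71.4 on ID8G arrays and 150 to 151 on GO2 arrays, with Fap, Lum, Postn and Thy1 not above background in either. Of 10 epithelial markers, 7 were tested and 5 fell, with a summed level of 638 to 647 and 357 to 359, and Epcam and Krt7 were not above background in either line. Of the tested mesothelial, adipocyte and smooth muscle markers, 2, 0 and 4 rose and 1, 3 and 0 fell, of 6, 4 and 4. The fibroblast marker Pdgfrb and the smooth muscle marker Cnn1 were not above background in ID8G cells, nor the adipocyte marker Fabp4 in GO2 cells. These were tested only through the line where they are high, so the filter fixed their direction. The part of these shifts in the cell cycle values was not tested.

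Cell cycle transcripts differed little between the cell lines. At a limma adjusted p below 0.05, 3 of the 52 genes were higher in GO2 cells, where 21.0% of all genes tested were, and 8 were lower, where 20.0% were. The higher genes were Cdc20, E2f1 and Ccnd1, and the lower genes were Ccnd2, Mad2l1, Pttg1, Cdk1, Ccnd3, Cdc25c, Mybl2 and E2f3. None of the 52 was at least 2-fold higher, against 5.98% of all genes tested, or at least 2-fold lower, against 3.94%. Differences ranged from -0.63 (Ccnd2) to 0.55 (Cdc20) on the log2 scale, with a median of -0.04 over the 52 genes and 0.00 over all genes tested. The GO2 arrays both lay above both ID8G arrays in 16 genes, where 39.3% of all genes did so, and below them in 24, where 39.1% did, and the lines overlapped in 12. Among the 41 genes without a call, the 95% intervals of the differences reached from -0.42 (Tpx2) to 0.46 (Ccne2). Under spike-in scaling, 1 gene was called higher and 20 lower, and the median was -0.25 against -0.21 for all genes. Of all genes, 10.4% were then higher and 31.9% lower, so that the share called was 40.4% in the 52 genes and 42.3% in all, against 21.2% and 41.0% under the 75th percentile scaling. With a variance that follows intensity (an intensity trend in limma), 53.8% of the 52 genes and 53.4% of all genes were called, so the lower share of calls rests on the setting.

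**Figure D1:**
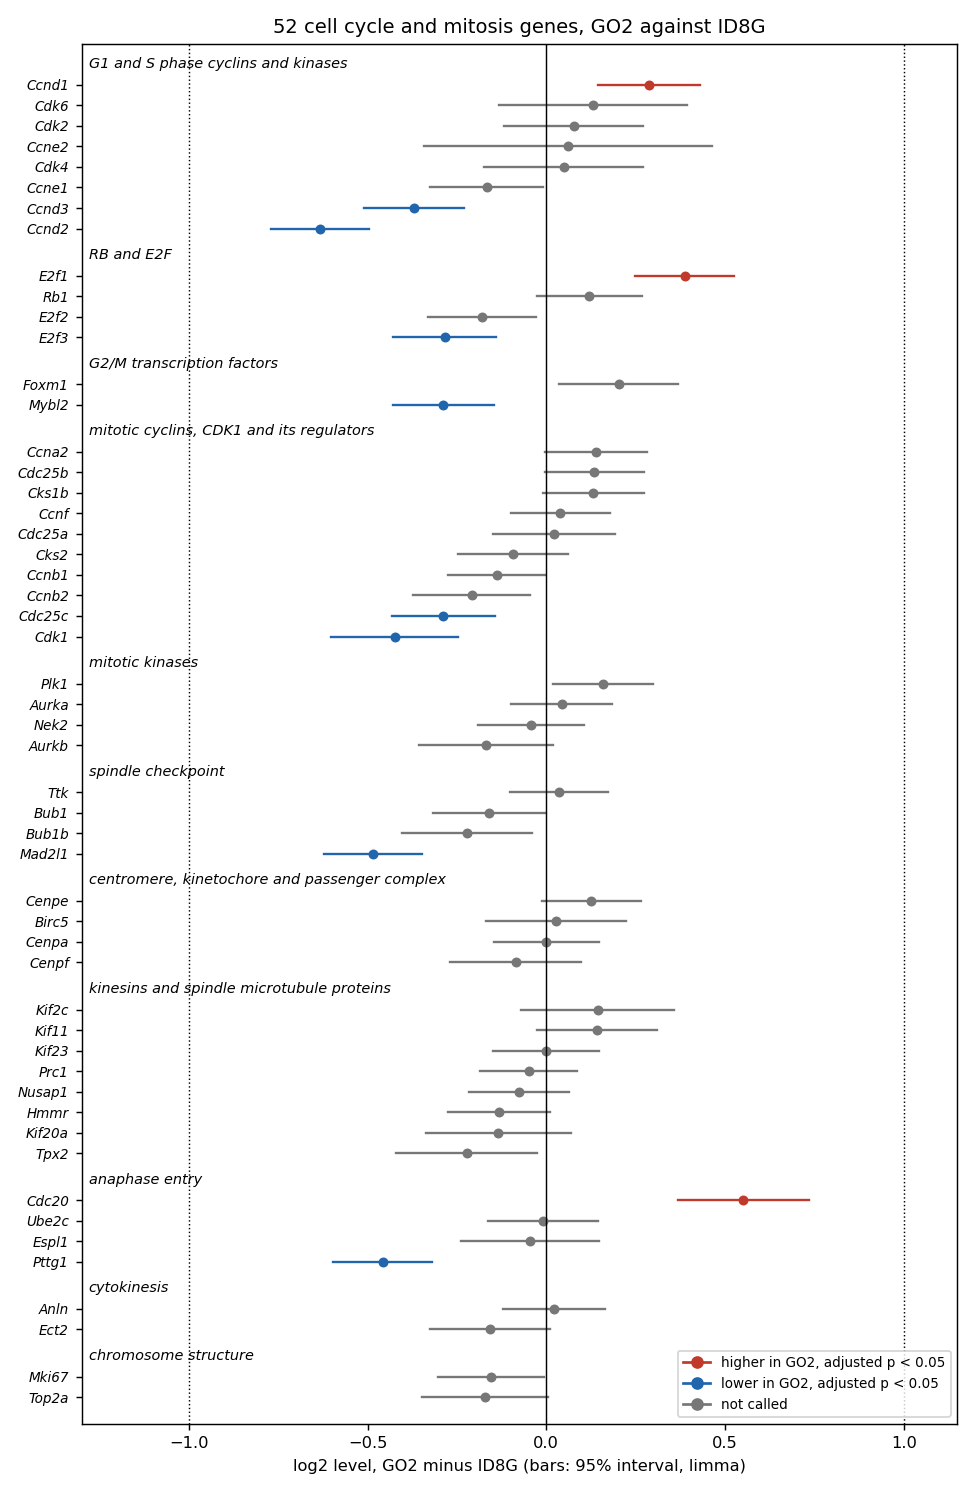
The log2 difference of each of the 52 genes (GO2 minus ID8G, horizontal axis) with its 95% interval from limma, grouped by role, with dotted lines at 2-fold. The points lie between -0.63 and 0.55, no interval reaches a dotted line, and colored points mark the 3 genes called higher and the 8 called lower.

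Beside the counts by role that follow, 21.0% of all genes tested were higher and 20.0% lower. With spike-in scaling these shares were 10.4% and 31.9%. Both GO2 arrays lay above both ID8G arrays in 39.3% of all genes and below them in 39.1%. The cyclins and kinases of G1 and S phase held 1 of the increases and 2 of the decreases. All 3 were D-type cyclins, the partners of CDK4 and CDK6 that respond to growth factors. Ccnd1 (cyclin D1) had a level of 3.30 and 3.34 in ID8G cells versus 3.60 and 3.62 in GO2 cells. The difference was 0.29 on the log2 scale, or 1.22-fold higher in GO2 cells (standard error 0.05, limma adjusted p = 0.0202). Its arrays did not overlap between the lines. Ccnd2 (cyclin D2) stood at 6.47 and 6.48 in ID8G cells versus 5.85 and 5.83 in GO2 cells. The difference was -0.63 on the log2 scale, or 1.55-fold lower in GO2 cells (standard error 0.05, limma adjusted p = 0.00255). This was the largest difference in size among the 52 genes, and the replicates lay close together in both lines. Ccnd3 (cyclin D3) read 5.27 and 5.29 in ID8G cells versus 4.89 and 4.92 in GO2 cells. The difference was -0.37 on the log2 scale, or 1.29-fold lower in GO2 cells (standard error 0.05, limma adjusted p = 0.0104). Ccnd2 and Ccnd3 fell while Ccnd1 rose, although with spike-in scaling Ccnd1 differed by 0.08 and was no longer called (limma adjusted p = 0.614).

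The catalytic partners and the E-type cyclins were not called. Cdk4, which binds the D-type cyclins, was at 6.21 and 6.28 in ID8G cells versus 6.38 and 6.21 in GO2 cells. Cdk6, its close relative, was at -2.19 and -1.96 in ID8G cells versus -1.94 and -1.95 in GO2 cells. The lines overlapped for Cdk4, and for Cdk6 both GO2 arrays lay just above the higher ID8G array. Their differences had 95% intervals of -0.17 to 0.27 and -0.13 to 0.39 on the log2 scale (limma adjusted p = 0.665 and 0.344). Cdk2, the partner of cyclin E, was at -0.37 and -0.52 in ID8G cells versus -0.36 and -0.37 in GO2 cells. Its lines overlapped too. Ccne1 (cyclin E1) was at 2.71 and 2.64 in ID8G cells versus 2.49 and 2.54 in GO2 cells, so both GO2 arrays were lower, by a log2 difference of -0.17 (standard error 0.06, limma adjusted p = 0.0902). Ccne2 (cyclin E2), which had the largest standard error of the 52 genes, was at -2.90 and -2.98 in ID8G cells versus -2.68 and -3.07 in GO2 cells. The interval of its difference was -0.34 to 0.46, and that of Cdk2 was -0.12 to 0.27.

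Among RB and the E2F factors, 1 gene rose and 1 fell. E2f1, an activator of S phase genes, was at 2.02 and 2.01 in ID8G cells versus 2.38 and 2.41 in GO2 cells. The difference was 0.39 on the log2 scale, or 1.31-fold higher in GO2 cells (standard error 0.05, limma adjusted p = 0.00907). It stayed positive with spike-in scaling, at 0.18, but was no longer called (limma adjusted p = 0.255). E2f3, another activator, was at -0.82 and -0.87 in ID8G cells versus -1.12 and -1.14 in GO2 cells. The difference was -0.28 on the log2 scale, or 1.22-fold lower in GO2 cells (standard error 0.05, limma adjusted p = 0.0211). Both genes were free of overlap between the lines, in opposite directions. E2f2, the remaining activator E2F, was at 2.76 and 2.76 in ID8G cells versus 2.55 and 2.62 in GO2 cells, which differed by -0.18 without a call (standard error 0.06, limma adjusted p = 0.0711). Rb1, whose protein holds these factors in check, was at 0.00 and 0.01 in ID8G cells versus 0.09 and 0.15 in GO2 cells, with an interval of -0.03 to 0.27. Both GO2 arrays were above both ID8G arrays for Rb1 and below them for E2f2.

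Of the 2 factors that switch on genes of G2 and mitosis, 1 fell and the other was not called. Mybl2, the B-MYB subunit that joins the MuvB complex, was at 3.71 and 3.69 in ID8G cells versus 3.39 and 3.43 in GO2 cells. The difference was -0.29 on the log2 scale, or 1.22-fold lower in GO2 cells (standard error 0.05, limma adjusted p = 0.0198). Its replicates differed far less than the lines did. Foxm1, which acts on many of the same promoters, was at 3.14 and 3.16 in ID8G cells versus 3.30 and 3.40 in GO2 cells, higher on both GO2 arrays. Its difference was 0.20 (standard error 0.06, limma adjusted p = 0.0676), and with spike-in scaling it was -0.01.

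Of the 10 genes for mitotic cyclins, CDK1 and its regulators, 2 were called, both lower in GO2 cells, where 20.0% of all genes tested were lower. Cdk1, the kinase that drives entry into mitosis, was at 3.82 and 3.75 in ID8G cells versus 3.41 and 3.31 in GO2 cells. The difference was -0.42 on the log2 scale, or 1.34-fold lower in GO2 cells (standard error 0.06, limma adjusted p = 0.0131). Its replicates were further apart than those of the D-type cyclins, but the lines did not overlap. Cdc25c, a phosphatase that activates CDK1, was at 2.75 and 2.71 in ID8G cells versus 2.43 and 2.45 in GO2 cells. The difference was -0.29 on the log2 scale, or 1.22-fold lower in GO2 cells (standard error 0.05, limma adjusted p = 0.0208). The replicates of Cdc25c lay close together in both lines. Cdc25a differed by 0.02 and Cdc25b by 0.13, neither of them called (limma adjusted p = 0.798 and 0.11), and with spike-in scaling both were negative, at -0.19 and -0.07. The B-type cyclins, which bind CDK1, had differences of -0.14 (Ccnb1) and -0.21 (Ccnb2), with limma adjusted p of 0.0987 and 0.0603. With spike-in scaling both were called lower, at -0.35 and -0.42 (limma adjusted p = 0.0423 and 0.0234). That gave 0 higher and 4 lower of the 10 genes, against 10.4% and 31.9% of all genes. Ccna2 (cyclin A2, 0.14), Ccnf (cyclin F, 0.04) and the CDK-binding subunits Cks1b (0.13) and Cks2 (-0.09) were not called either.

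None of the 4 mitotic kinases was called. Plk1, which acts from mitotic entry to cytokinesis, differed by 0.16, Aurka, a kinase of the spindle poles, by 0.04, Nek2, a kinase of the centrosome, by -0.04, and Aurkb, the kinase of the chromosomal passenger complex, by -0.17. Their limma adjusted p ranged from 0.0789 (Plk1) to 0.563 (Nek2), and with spike-in scaling the 4 differences were all negative, with Aurkb called lower (-0.38, limma adjusted p = 0.0266). The spindle checkpoint, which holds anaphase back until every chromosome is attached, held 1 called gene of 4. Mad2l1 (MAD2), the inhibitor of CDC20 in that checkpoint, was at 5.07 and 5.09 in ID8G cells versus 4.59 and 4.60 in GO2 cells. The difference was -0.48 on the log2 scale, or 1.40-fold lower in GO2 cells (standard error 0.05, limma adjusted p = 0.00502). The replicates of each line nearly coincided. Bub1 and Bub1b, the kinase and the pseudokinase of the checkpoint, differed by -0.16 and -0.22, and Ttk (MPS1), the kinase that starts its signal, by 0.04, none of them called (limma adjusted p = 0.0991, 0.0664 and 0.616). Bub1 and Bub1b were called lower with spike-in scaling, at -0.37 and -0.43 (limma adjusted p = 0.0328 and 0.0204). The checkpoint then had 0 higher and 3 lower of 4, against 10.4% and 31.9% of all genes.

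The 4 centromere, kinetochore and passenger complex genes and the 8 kinesins and spindle proteins held no call. Cenpe, a kinetochore motor, differed by 0.13, Birc5 (survivin) by 0.03, the centromeric histone Cenpa by 0.00 and Cenpf, a kinetochore protein, by -0.09. Among the spindle genes, the differences ran from -0.22 for Tpx2, a spindle assembly factor that activates Aurora A, to 0.14 for Kif2c, a kinesin that takes microtubules apart. Kif11, the motor that separates the spindle poles, was at 0.14, and Kif20a, Kif23 and Prc1, which act in the midzone of the anaphase spindle, were at -0.13, 0.00 and -0.05. Hmmr and Nusap1, which bind spindle microtubules, were at -0.13 and -0.08. The spindle genes had a median of -0.06, which spike-in scaling moved to -0.27, with 0 higher and 2 lower of 8. The median of all genes moved to -0.21, with 10.4% higher and 31.9% lower.

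The genes of anaphase entry held the largest increase and 1 of the 3 largest decreases among the 52, in genes whose products work on the same step. Cdc20, which activates the APC/C at the end of metaphase, was at 4.40 and 4.51 in ID8G cells versus 4.98 and 5.04 in GO2 cells. The difference was 0.55 on the log2 scale, or 1.47-fold higher in GO2 cells (standard error 0.07, limma adjusted p = 0.00758). It was the 1 gene still called higher with spike-in scaling, with a difference of 0.34 (limma adjusted p = 0.0374). Pttg1 (securin), the inhibitor of separase that the APC/C with CDC20 marks for destruction, was at 4.66 and 4.63 in ID8G cells versus 4.18 and 4.20 in GO2 cells. The difference was -0.46 on the log2 scale, or 1.37-fold lower in GO2 cells (standard error 0.05, limma adjusted p = 0.00609). Neither gene overlapped between the lines. Espl1 (separase), which cuts cohesin, differed by -0.05 and Ube2c, the ubiquitin-conjugating enzyme of the APC/C, by -0.01, with intervals of -0.24 to 0.15 and -0.16 to 0.14. Around this step Cdc20 was called higher, and its inhibitor Mad2l1 and its substrate Pttg1 were called lower. Espl1, Ube2c, the B-type cyclins Ccnb1 and Ccnb2, and the checkpoint genes Bub1, Bub1b and Ttk were not called. Whether these differences are linked was not tested.

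The genes of chromosome structure that are often read as markers of dividing cells were not called. Mki67, the gene of the proliferation antigen Ki-67, was at 5.56 and 5.59 in ID8G cells versus 5.45 and 5.39 in GO2 cells. Its difference was -0.15 with an interval of -0.30 to -0.01 (standard error 0.05, limma adjusted p = 0.0943). Top2a, the topoisomerase that untangles chromosomes before they part, was at 5.50 and 5.42 in ID8G cells versus 5.33 and 5.24 in GO2 cells. Its difference was -0.17 with an interval of -0.35 to 0.00 (standard error 0.06, limma adjusted p = 0.109). For both genes each GO2 array lay below each ID8G array, as in 39.1% of all genes tested. With spike-in scaling both were called lower, at -0.36 and -0.38 (limma adjusted p = 0.0357 and 0.0371). The cytokinesis genes Anln (anillin, 0.02) and Ect2, an exchange factor for RhoA (-0.16), were not called. For these, spike-in scaling gave 0 higher and 1 lower of 2, against 10.4% and 31.9% of all genes.

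**Figure D2:**
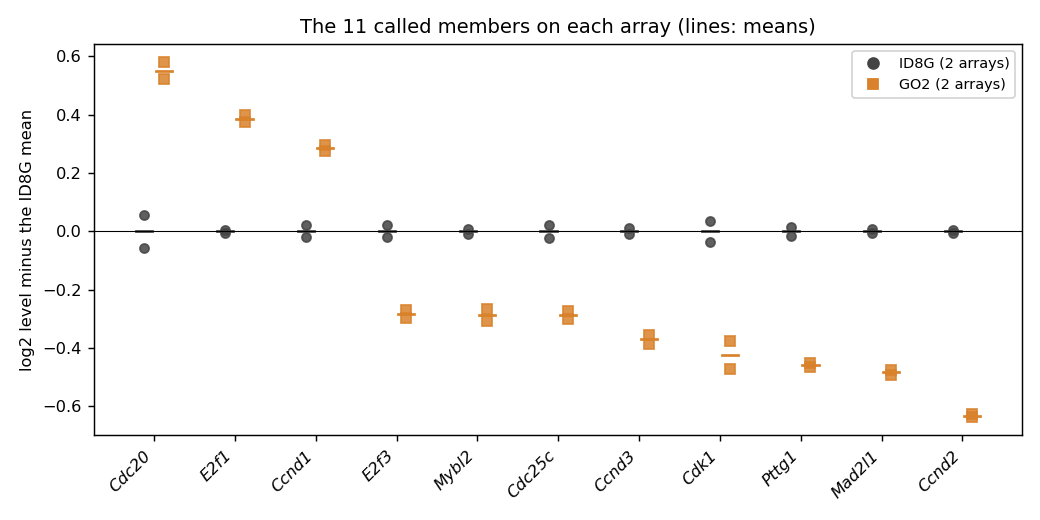
Level of the 11 called genes on each array as the log2 difference from the mean of the ID8G arrays (vertical axis), with circles for ID8G, squares for GO2 and short lines for the means of 2 arrays. The squares of Cdc20, E2f1 and Ccnd1 lie above the circles, those of the other 8 genes lie below, and in no gene do they overlap.

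The differences of the 52 genes were compared with those of all genes tested, as a description. The median size of the difference, regardless of sign, was 0.14 on the log2 scale in the 52 genes and 0.21 in all 13215 genes, and 3.85% and 21.2% differed by at least 0.5. The whole 95% interval lay within 2-fold in 52 of the 52 genes and in 85.6% of all genes. The median standard error was 0.0541 in the 52 genes and 0.0620 in all genes. Between the arrays of a line, the median absolute difference of the 52 genes, by their brightest probes, was 0.0326 (ID8G) and 0.0395 (GO2). That of all 28368 probes tested was 0.0773 and 0.0778. These are not limited to brightest probes or to probes with a symbol, so the 2 sets are unlike. The 52 genes are also brighter, with a median level of 3.47 against 1.27, and the part of brightness in these shares was not tested.

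**Figure D3:**
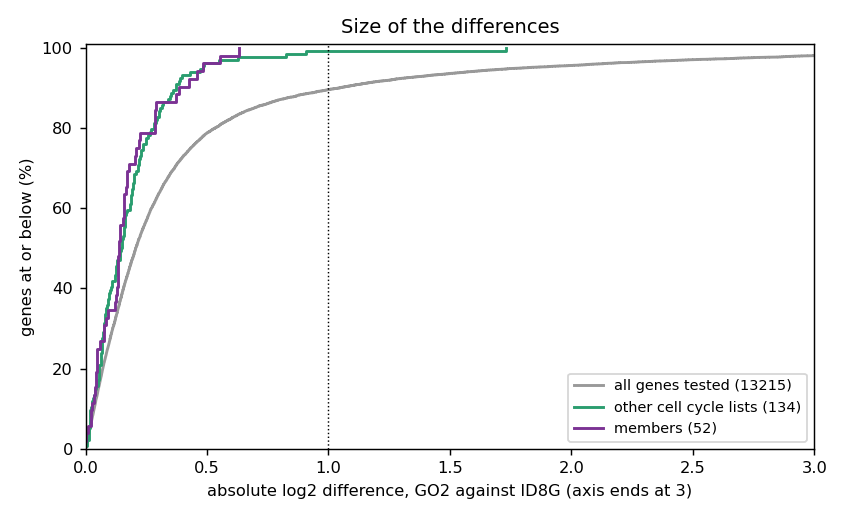
Share of genes (vertical axis, percent) whose absolute log2 difference between the lines is at or below the value on the horizontal axis, for all 13215 genes tested, 134 genes of the other cell cycle lists and the 52 genes. The curve of the 52 genes reaches 100% at 0.63, before the dotted line at 2-fold, and the horizontal axis ends at 3, below the largest differences of all genes.

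Of the 52 genes, 26 had more than 1 tested probe, which were read on the same arrays and are no further replicates. For some genes, such as Birc5, Ccnd2, Kif2c and Ttk, the probes were assigned to different RefSeq transcripts. All 3 probes of Ccnd2 were called lower, by differences of -0.63, -0.63 and -0.80. The second probes of Ccnd3 (-0.40), Mad2l1 (-0.48), Pttg1 (-0.57) and Cdc20 (0.55) were called in the same direction as the first, with limma adjusted p from 0.0046 (Cdc20) to 0.015 (Pttg1). The other 6 called genes had 1 tested probe each. In 4 genes a dimmer probe was called and the brightest was not. For Ect2 the dimmer probe (A_55_P2603307) was at 1.26 and 1.21 in ID8G cells versus 0.85 and 0.80 in GO2 cells, a difference of -0.41 (limma adjusted p = 0.0102). Dimmer probes of Ccnb1 (A_55_P2128668) and Aurkb (A_66_P103201) were called lower, by differences of -0.28 and -0.21 (limma adjusted p = 0.038 and 0.0405). The dimmer probe of Ccnf (A_55_P2737582) was at -3.49 and -3.43 in ID8G cells versus -2.84 and -2.14 in GO2 cells, a difference of 0.97 (limma adjusted p = 0.0461). That probe was well above background on only 1 of the ID8G arrays and lay close to the background, and its GO2 replicates were far apart. Dimmer probes of Birc5, Cdk4, Hmmr and Ttk had the opposite sign to the brightest probe, with neither called. For Mybl2, 1 further probe was not above background on any array and was not tested.

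**Figure D4:**
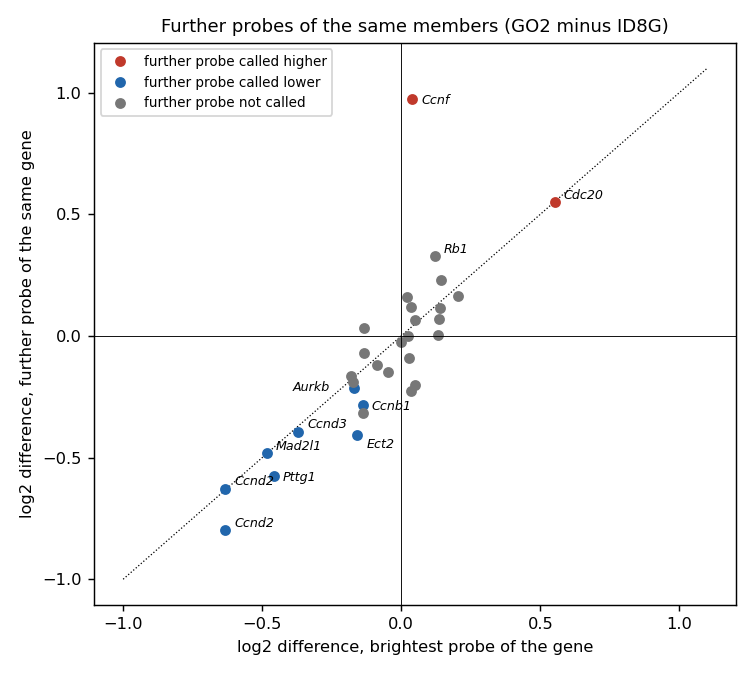
Log2 difference (GO2 minus ID8G) of each further tested probe of a gene (vertical axis) against that of its brightest probe (horizontal axis), one point per probe, with a dotted line where both are equal. Probes of Ccnd2, Mad2l1, Pttg1 and Cdc20 lie near that line, and the dim Ccnf probe stands apart at 0.97 against 0.04.

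Other genes of the cell cycle were read from 8 lists of roles that the 52 genes do not cover, of which 134 genes of 137 were tested. Of these, 16 were higher and 20 lower, 26.9% in all against 41.0% of all genes, with a median difference of -0.04. With spike-in scaling these counts were 2 higher and 45 lower, where 10.4% of all genes were higher and 31.9% lower. The list for replication licensing and S phase held 8 lower (40.0%) and 0 higher genes of 20, with a median of -0.18. Of all genes tested, 20.0% were lower and 21.0% higher. With spike-in scaling the list held 0 higher and 15 lower. Among its decreases were those of Gmnn, the licensing inhibitor geminin (-0.43, limma adjusted p = 0.00816), and of Tk1, thymidine kinase (-0.40, limma adjusted p = 0.0197). All 8 decreases of the 52 genes and these 8 are below 2-fold.

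Of 7 CDK inhibitors, 4 were tested, 1 rose and 2 fell, where 21.0% of all genes tested rose and 20.0% fell. Cdkn2c (p18), which binds CDK4 and CDK6, was 2.52 ± 0.05 (SD, n = 2) in ID8G cells and 3.43 ± 0.04 in GO2 cells, higher by 0.91 on the log2 scale (limma adjusted p = 0.0016). Cdkn1a (p21) and Cdkn1b (p27), which bind CDK complexes of several phases, were lower, with differences of -0.63 and -0.55 (limma adjusted p = 0.00972 and 0.00471). These 3 calls held with spike-in scaling.

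Beside the list counts that follow, 21.0% of all genes tested were higher and 20.0% lower, and with spike-in scaling 10.4% and 31.9%. Of 16 APC/C genes, 3 were higher and 1 lower, among them the subunits Anapc1 (0.29), Anapc11 (0.26) and Cdc27 (-0.36), and with spike-in scaling 0 higher and 4 lower. Of 27 other kinetochore and passenger complex genes, 4 were higher and 5 lower, and with spike-in scaling 0 higher and 11 lower. The subunits Nuf2 (0.39) and Spc24 (-0.37) of the NDC80 complex were called in opposite directions, and Cenpi, of the inner kinetochore, differed by -0.35. Condensin and cohesin genes were called higher in 1 and lower in 2 of 16, among them the condensin subunit Ncaph2 (-0.37), the cohesin subunit Stag1 (0.28) and the cohesin release factor Wapl (-0.27), and with spike-in scaling 0 higher and 5 lower. Of 19 other kinesins and spindle genes, 1 was higher, the minus-end motor Kifc1 (0.47), and 0 lower, and with spike-in scaling 0 higher and 3 lower. The DREAM and MuvB list, of complexes that repress and activate cell cycle genes, had 4 higher and 1 lower of 15. Among the higher were the repressor E2F genes E2f6 (0.39) and E2f7 (0.34). With spike-in scaling 0 were higher and 3 lower. E2f6 (0.18) and E2f7 (0.13) were then no longer called, and the 1 lower gene still was. In the list of other cyclins and CDK activation, 2 were higher and 1 lower of 17. There Gas6, a secreted ligand of TAM receptors and no cyclin, differed by 1.73, Ccng2, an atypical cyclin known from arrested cells, by -0.83, and Gas1, a membrane protein of growth arrest, by 0.49, and of the 3 Gas1 was no longer called with spike-in scaling. Gas6 was the 1 gene of these 134 past 2-fold.

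The direction of the 11 called genes was the same under every setting tried, but not every call held. With spike-in scaling, 9 of the 11 were still called, and 20 genes without a call changed sign, as the median of all genes moved from 0.00 to -0.21 on the log2 scale. Without the filter on dim probes, Ccnd2 alone was called, while 9.54% of all genes were. When 1 array was left out in turn, 1 line held a single array, so only the differences over the 4 fits are given. They ran from -0.64 to -0.63 (Ccnd2), -0.49 to -0.48 (Mad2l1), -0.47 to -0.44 (Pttg1), 0.495 to 0.608 (Cdc20) and -0.47 to -0.38 (Cdk1). For the other 6 genes they were 0.27 to 0.31 (Ccnd1), 0.37 to 0.40 (E2f1), -0.39 to -0.35 (Ccnd3), -0.30 to -0.26 (E2f3), -0.31 to -0.27 (Mybl2) and -0.31 to -0.27 (Cdc25c). In these fits the lone array of a line was assumed to vary like the other line.

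**Figure D5:**
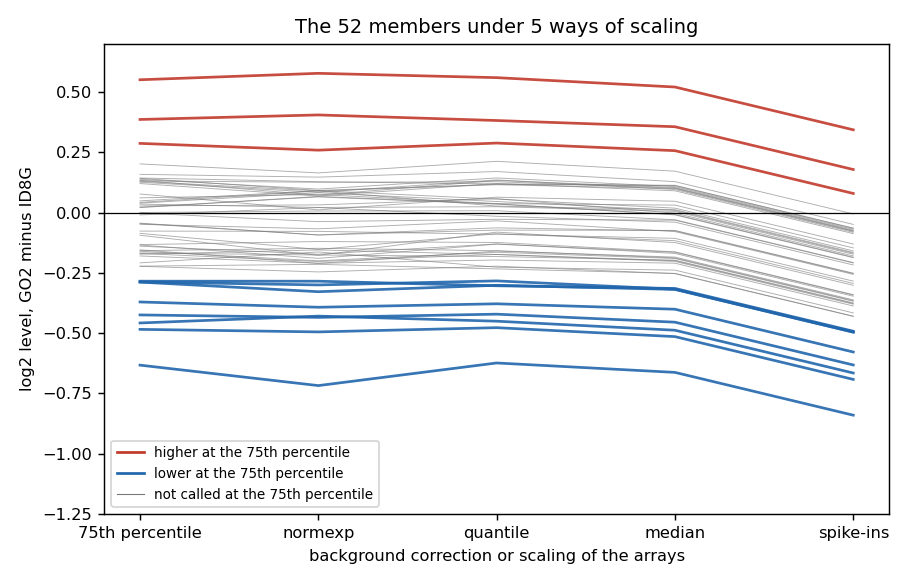
Log2 difference of each of the 52 genes (vertical axis) under the 75th percentile scaling, normexp background correction, quantile normalization, median centering and spike-in scaling, one line per gene. The lines stay nearly level except at the spike-in scaling, where all move down, Ccnd1 to 0.08 and Ccnd2 to -0.84.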

How the data were processed

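Total RNA of ID8G and GO2 cells was measured on 2 one-color Agilent arrays per line. The authors deposited the scanner files of Feature Extraction 11.5.1.1, which hold a background-corrected linear intensity per spot, without normalization across arrays. They also deposited a table of log2 values from GeneSpring. Against the intensities, these proved to be log2 values scaled to the 75th percentile and centered on each probe (median absolute difference 0.00230; column medians 0.10, -0.05, 0.04 and -0.05). They served as 1 alternative. Of the per-sample columns, 0 were left unused.

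Spots marked as outliers were left out, spots of a probe were averaged on the log2 scale, and the 75th percentile over the 56605 probes that are not controls was subtracted. The 28368 probes with signal well above background in both replicates of a line were tested with limma 3.58.1 in R 4.3.3. The model held the cell line alone, with p values adjusted by Benjamini-Hochberg over all of them. Genes were named through RefSeq accessions (GRCm38.p6), which matched 58.3% of the probes, and are given by their brightest tested probe. The fit was tested on simulated data of 28344 probes, in which 100 were changed by a log2 difference of 1 and 100 by 2. The fit recovered 72 and 93 of these, and called 13 unchanged probes. Figures were drawn with matplotlib 3.10.9 (python 3.11.15, pandas 2.3.3).

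Levels on each array are given for called genes and for a fixed set (the D and E cyclins, CDK1, 2, 4 and 6, RB and E2F genes, Foxm1, Mybl2, Mki67 and Top2a), and from each other list at most the 3 largest differences, of which 1 is not reported here. The 52 genes, their roles and the lists were chosen with earlier results of these data known, and the promoters and motifs after the values were seen.

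Alternatives were normexp (offset 50, on the median spot signal), quantile normalization, median centering, spike-in scaling, other filters, a floor, outlier spots kept, an intensity trend, the methods' t-test, the replicate block, the deposited log2 values, the mean over probes, a 2-fold threshold and leaving out each array. The 75th percentile over spots in place of probes was chosen after seeing the data. Slide could not be a block, as there is 1 slide, and the scanner files hold no column of gene names to choose genes by, so these alternatives were not run.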

Additional observations from a re-analysis of the deposited data

How the results depend on the processing

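Against 3 genes higher and 8 lower with a median difference of -0.04, spike-in scaling gave 1 and 20 with a median of -0.25, no filter on dim probes 0 and 1, an intensity trend 8 and 20, the mean over probes 6 and 14, and the 2-fold threshold 0 and 0. The methods' t-test gave 0 and 0 after Benjamini-Hochberg adjustment and 7 and 10 at an unadjusted p below 0.05. After that adjustment it called 0.0227% of all genes, so its loss of all 11 calls is not particular to the 52 genes. Without 1 array, the median difference of the 52 genes was -0.05 to -0.03. Spike-in scaling shifts all differences down and the filter changes how many probes are tested. The 2-fold threshold could keep no call, as the largest difference among the 52 genes was 0.63 in size. The cause of the other changes was not tested. Normexp, quantile normalization, median centering, the percentile over spots, a filter that asks for signal on all 4 arrays, the floor, outlier spots kept and the deposited values gave 3 higher and 8 to 10 lower. Over all alternatives, the 11 called genes kept their call in 158 comparisons and lost it in 62, of which 11 were at the 2-fold threshold. Named genes without a call gained one in 13, and no called gene changed sign. The share of the 52 genes called was near that of all genes with the intensity trend (53.8% against 53.4%), spike-in scaling (40.4% against 42.3%) and the unadjusted t-test (32.7% against 31.2%). That share was 38.5% against 47.3% with the mean over probes, and 1.92% against 9.54% without the filter on dim probes.

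With the replicate block, 3 genes were higher and 8 lower, with all 11 calls shared. A shared number is no pairing here: deviations of same-numbered arrays had a correlation of 0.0273 over the tested probes. Slide as a block (1 slide) and genes chosen by a gene name column (none in the scanner files) were not run.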
